A study of Mus musculus with 14 samples.

Results

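The genes described here encode the matrix metalloproteinases (MMPs), the ADAMTS proteases and the tissue inhibitors of metalloproteinases (TIMPs). They were chosen by symbol alone: Mmp, Adamts or Timp followed by a number, with an optional letter for the MMPs, which left out the ADAMTS-like genes. The deposited tables held 46 such genes among 24411, namely 23 MMPs, 19 ADAMTS genes and 4 TIMPs. RNA was sequenced from MC-38 cells, a mouse colon carcinoma line, in 14 libraries of 6 groups. In culture, 3 control libraries of untreated cells stood beside 3 libraries of cells given chromatin from neutrophil extracellular traps (NETs), the DNA and protein webs that neutrophils release; this chromatin had been collected from neutrophils in vitro. The other 8 libraries came from MC-38 cells expressing green fluorescent protein (GFP), taken from lung tumours by flow sorting on day 30. Their hosts were wild-type (WT) mice or mice with a knockout (KO) of PAD4, the enzyme that citrullinates histones when NETs form, and hosts of each kind had either no surgery or laparotomy on days 0 and 10, with 2 libraries in each of these 4 groups. The knockout is in the host and not in the sequenced line, which the labels call WT throughout.

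MMPs are zinc proteases that are made with a propeptide, are activated outside the cell or at its surface and together cut nearly every protein of the extracellular matrix. ADAMTS proteases are secreted relatives with thrombospondin repeats that cut proteoglycans such as versican and aggrecan, or trim procollagens, while TIMPs bind the active site of these enzymes and block it. In tumours these genes are known from both the cancer cells and the fibroblasts, macrophages and neutrophils around them.

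Gene counts summed to between 6.39 and 20.6 M (10 to the power 6) in the culture libraries and between 10.8 and 31.3 M in the tumour libraries. Separate dishes or mice behind the libraries of 1 group are not stated, and the p-values therefore rest on a spread that may be technical. Summed over 10 colon epithelial markers, the cultured cells held 1.06 to 1.85 CPM (counts for each 1 M of a library, after scaling), and Cdh1 and Cdx2 were at 0 in the control cultures, so the labelled origin of the line could not be read from these markers. The sorted tumour samples held transcripts that mark other cell types. Fibroblast and mural markers summed to 3770 to 12400 CPM in tumours against 141 to 171 in culture, and monocyte and macrophage markers to 110 to 1650 CPM in tumours. WT control replicate 2 stood apart, with 572 CPM of neutrophil markers and 825 CPM of lung epithelial markers, against 4.91 to 92.3 and 16.5 to 422 CPM in the other tumour libraries. In bulk RNA, fewer cells of a type and less RNA per cell cannot be told apart.

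The control cultures expressed a narrow set of these genes. A group mean of 1 CPM or more, called detected here, was reached by 13 of the 46 in control culture and by 17 with NET chromatin. In tumour cells 28 were detected in WT control hosts, 23 with laparotomy, 24 in KO control hosts and 27 with laparotomy, and 22 were detected in all 4 tumour groups. Below 1 CPM in every group lay 16 genes: Mmp1a, Mmp1b, Mmp7, Mmp17, Mmp20, Mmp21, Mmp24, Mmp25, Mmp27, Adamts3, Adamts13, Adamts17, Adamts18, Adamts19, Adamts20 and Timp4. Of these, Mmp7 and Mmp20 had 0 counts in all 14 libraries, and Adamts18, Adamts19 and Mmp1a had 1 to 3 counts over all of them.

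Divided by exon length, so that genes can be set side by side, the most abundant transcripts in control culture were Mmp11 (84.4 CPM per kilobase), Timp2 (70.5), Timp1 (65.8), Mmp14 (27.1) and Adamts14 (18.8). Mmp11 encodes stromelysin 3, which is activated inside the cell by furin. In tumour cells of WT control hosts the order was Timp1 (444 CPM per kilobase), Mmp2 (152), Mmp14 (72.1), Timp2 (50.7) and Mmp9 (48.2). Culture and tumour libraries were scaled separately, and no test was made between them. The clearest contrast was Mmp2, gelatinase A, at 0.532 to 1.18 CPM in control culture and 176 to 746 CPM in every tumour library. Mmp19, a soluble MMP with basement membrane substrates, lay at 0.214 to 0.863 CPM in control culture and 24.6 to 76.8 CPM in tumours, and Adamts5, an aggrecanase, at 0 to 0.228 and 3.53 to 26.7 CPM. Some fibroblast markers were parted the same way, such as Col1a1 at 1.18 to 1.80 CPM in control culture and 728 to 2600 CPM in tumours. Others were already present in control culture. Pdgfra lay at 81.7 to 85.1 CPM there and 189 to 511 CPM in tumours, and Col3a1 at 35.9 to 39.1 and 1900 to 8080 CPM. The part of fibroblasts in the levels of Mmp2, Mmp19 and Adamts5 was not tested.

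**Figure D1:**
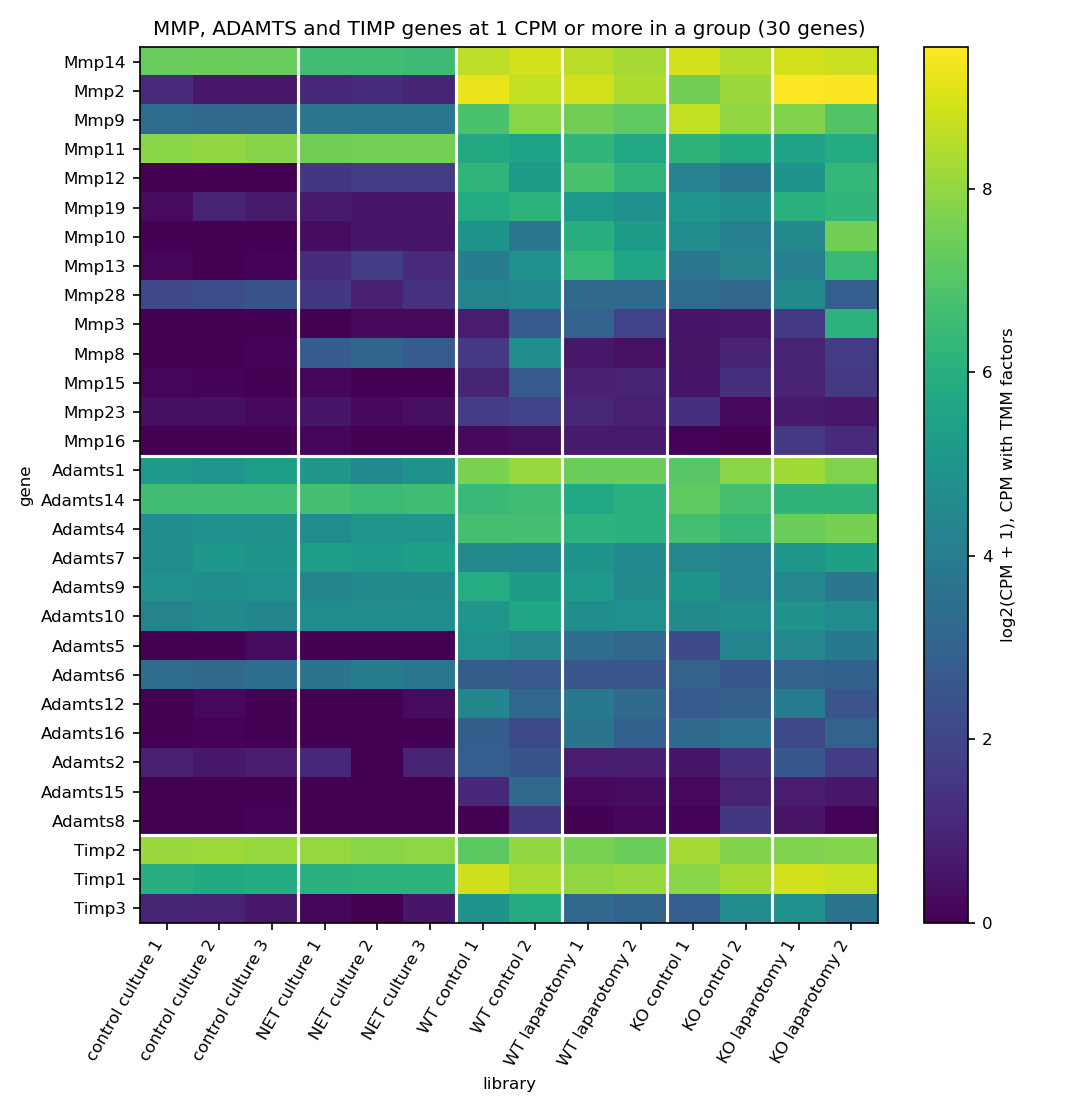
Levels of the 30 MMP, ADAMTS and TIMP genes that reached 1 CPM in at least 1 group (rows) in the 14 libraries (columns), coloured by log2(CPM + 1); culture and tumour libraries were scaled separately. Mmp14, Timp1, Timp2 and Adamts14 were bright throughout, whereas Mmp2, Mmp19 and Adamts5 were bright in the 8 tumour libraries and dark in culture.

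The first comparison asked what NET chromatin did to MC-38 cells in culture, where no host tissue was present. Of the 46 genes, 17 passed the filter on low counts and were tested with edgeR's quasi-likelihood test. After Benjamini-Hochberg adjustment over all 11753 genes tested, 7 of the 17 were higher with NET chromatin, against 26.3% of all genes, and 6 were lower, against 27.8%. In either direction the background was 54.1%, so a call in this comparison is common, and a gene that is detected through NET cultures alone passes the filter because it is high there. The higher genes were Mmp8, Mmp12, Mmp13, Mmp9, Adamts6, Adamts7 and Timp1, and the lower ones Mmp14, Mmp11, Mmp28, Adamts1, Adamts9 and Timp2. Mmp8, Mmp12 and Mmp13 had 1, 0 and 2 counts over the control cultures and passed the filter through the NET cultures. They could therefore not have been called lower, and no pattern by type of protease is drawn from their direction. The membrane collagenase Mmp14 and stromelysin 3 (Mmp11), which were expressed in both groups, were lower.

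**Figure D2:**
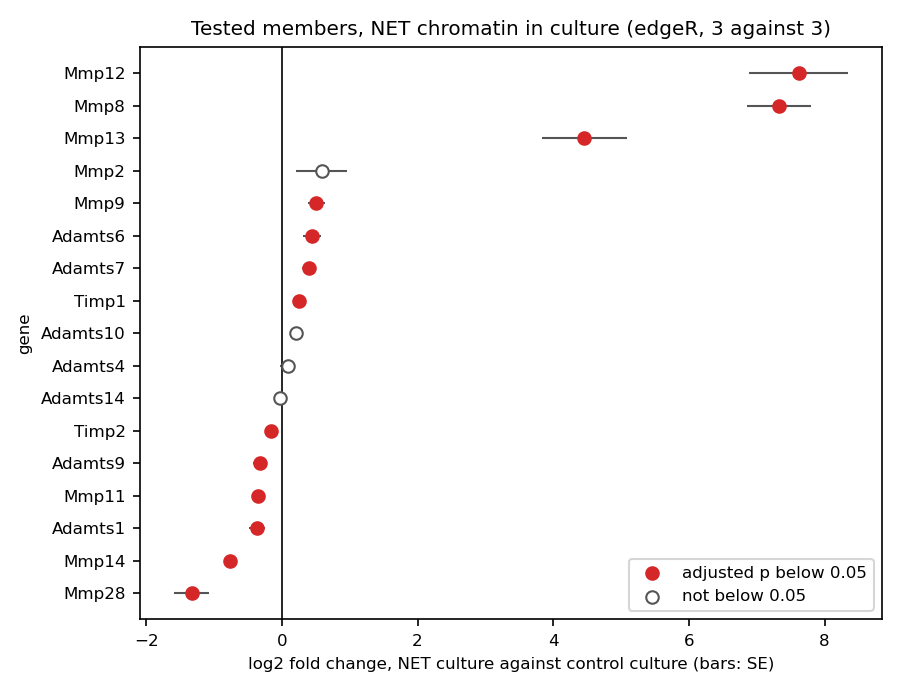
Log2 fold change with NET chromatin against control culture for the 17 tested genes (points, with standard error bars), filled where the edgeR adjusted p was below 0.05. Mmp12, Mmp8 and Mmp13 lie at 4.46 or above, and all other values lie between -1.33 and 0.59.

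Mmp8, the collagenase best known from neutrophil granules, passed the filter through the NET cultures alone. Its direction was therefore fixed before the test, and it is not ranked against the other genes. Its levels were 0, 0 and 0.0760 CPM in the control cultures and 5.87, 7.74 and 5.86 CPM with NET chromatin. All NET cultures were above all controls, on 209 counts against 1, a 218-fold ratio (95% interval from counting alone: 38.8 to 8660). The fitted log2 fold change was 7.33 ± 0.47 (SE; edgeR adjusted p = 6.34e-09). Neutrophil markers were also higher in these cultures: 10 genes summed to 0.304 to 1.02 CPM in controls and 2.69 to 3.87 CPM with NET chromatin. Among them S100a8 read 0.734 to 1.35 CPM with NET chromatin. S100a9 and Csf3r, at 0 in all controls, read 0.978 to 1.43 and 0.255 to 0.505 CPM. Retnlg and Ngp were at 0 in all NET cultures, and Camp, Ltf, Mpo and Elane overlapped their controls. Pan-leukocyte markers, 10 genes, summed to 4.71 to 4.86 CPM in controls and 16.8 to 19.5 CPM with NET chromatin. Mmp8 alone took more reads in the NET cultures than the 10 neutrophil markers together. Whether RNA carried by the chromatin had a part in the Mmp8 reads was not tested.

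Mmp12, macrophage elastase, had 0 counts in all 3 control cultures and lay at 1.96, 2.36 and 2.14 CPM with NET chromatin. With 72 counts against 0, and a floor of 3 counts over the control group, it was at least 25.1-fold higher (edgeR adjusted p = 7.07e-07). Mmp13, interstitial collagenase 3, read 0.107, 0 and 0.0760 CPM in controls and 1.34, 2.36 and 1.22 CPM with NET chromatin, on 2 and 49 counts, a 25.6-fold ratio with the interval 6.72 to 217 (edgeR adjusted p = 1.64e-05). For both genes the groups did not overlap. Macrophage markers were higher in the same cultures: 12 genes summed to 89.2 to 108 CPM in controls and 151 to 176 CPM with NET chromatin, of which Cd68 held 78.2 to 97.9 and 127 to 150 CPM. Adgre1 and Csf1r, which define macrophages, were at 0 in controls and at 1.53 to 2.02 and 0.561 to 1.34 CPM with NET chromatin, C1qa and C1qc were at 0 in all 6 cultures, and the part of such RNA in Mmp12 and Mmp13 was not tested.

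Some stromelysin and ADAMTS transcripts were too rare for the test and are given as raw counts. Mmp10, stromelysin 2, had 0 counts in control culture and 14 with NET chromatin, at 0.245, 0.505 and 0.459 CPM, at least 4.87-fold higher. Mmp3, stromelysin 1, had 0 and 4 counts. Adamts13, the protease that cuts von Willebrand factor, had 3 and 27 counts, a 9.40-fold ratio with the interval 2.89 to 48.4, and lay at 0.611, 1.01 and 0.815 CPM with NET chromatin against 0.0760 to 0.107 CPM in controls. Mmp10 and Adamts13 passed an edgeR fit without the filter on low counts.

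Mmp12, Mmp13, Mmp3, Mmp10 and Mmp8 are neighbours. In the GRCm38 annotation, 10 of the 23 MMP genes lie on chromosome 9 between 7272514 and 7699585: Mmp13, Mmp12, Mmp1b, Mmp3, Mmp1a, Mmp10, Mmp8, Mmp27, Mmp20 and Mmp7. Mmp12 and Mmp1b overlap on opposite strands, so without strand their shared reads cannot be assigned to either gene. Mmp1b had 0 counts in all cultures, and Mmp12 was also called higher from the counts kept by strand. Promoters of this cluster are known for a site of AP-1, the dimer of Fos and Jun proteins, close to the start, and the letters TGANTCA were therefore searched in the 250 bases before each start (this word is its own reverse complement). RefSeq promoter entries (GRCm38.p6) matched 32 of the 46 genes, with 35 windows. The 14 genes without an entry included Mmp2, Mmp9, Mmp19 and Adamts4. The word was present in 8 of the 12 windows of the chromosome 9 cluster. It was in 0 of the 23 windows of the other genes with an entry. Over member windows the share was 22.9%, against 2217 of 32851 windows (6.75%) of all genes in the table. Of the 8 genes with the word, Mmp1a, Mmp1b, Mmp7 and Mmp20 had 0 counts in all cultures. The ETS word AGGAAG, searched on both strands, was present in 14 of the 35 windows (40.0%) against 29.5% of all windows. The last 150 bases before the start are shown for the 5 cluster genes with 4 or more counts over the NET cultures, on the plus strand, with the AP-1 word in capitals; the Mmp12 start shown is the second of its entries, the one with the word.
Mmp13, chr9:7272364-7272513: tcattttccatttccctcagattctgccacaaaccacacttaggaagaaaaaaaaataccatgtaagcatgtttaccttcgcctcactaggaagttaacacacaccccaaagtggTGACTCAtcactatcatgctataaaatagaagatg
Mmp12, chr9:7347224-7347373: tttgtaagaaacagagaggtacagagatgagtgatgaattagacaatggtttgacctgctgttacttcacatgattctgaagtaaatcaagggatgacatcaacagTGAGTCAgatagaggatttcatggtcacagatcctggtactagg
Mmp3, chr9:7445672-7445821: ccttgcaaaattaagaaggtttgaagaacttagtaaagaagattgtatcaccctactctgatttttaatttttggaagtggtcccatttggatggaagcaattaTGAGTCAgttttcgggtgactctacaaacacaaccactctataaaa
Mmp10, chr9:7502192-7502341: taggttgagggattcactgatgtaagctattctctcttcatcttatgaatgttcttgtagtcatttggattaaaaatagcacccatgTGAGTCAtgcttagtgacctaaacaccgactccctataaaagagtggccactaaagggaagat
Mmp8, chr9:7558279-7558428: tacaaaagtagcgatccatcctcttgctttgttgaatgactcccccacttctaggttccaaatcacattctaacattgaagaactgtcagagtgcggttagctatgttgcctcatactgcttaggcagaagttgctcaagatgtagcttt
The word began 35 bases before the start in Mmp13, 44 in Mmp12, 46 in Mmp3 and 63 in Mmp10. Its middle base differs among them, so that Mmp13 reads TGACTCA and the others TGAGTCA. The Mmp8 window held no match, and Mmp8 was the cluster gene with the most counts in NET culture. A match is a match of letters only, and binding was not measured.

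**Figure D3:**
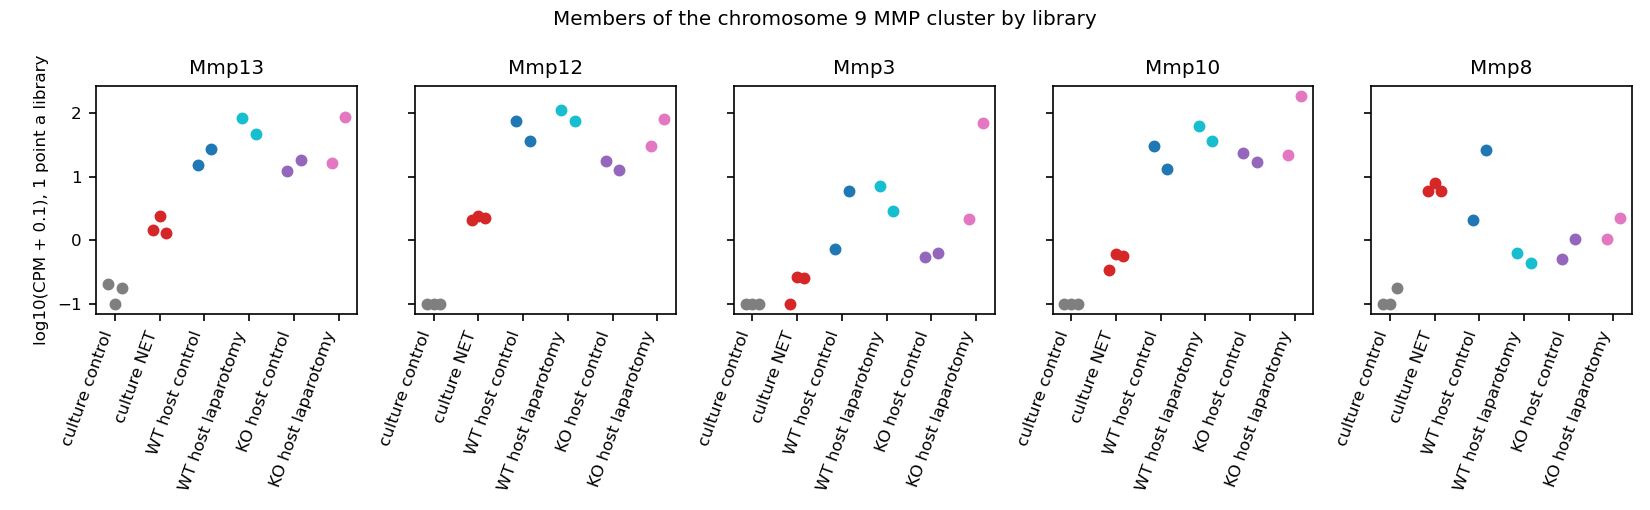
Levels of Mmp13, Mmp12, Mmp3, Mmp10 and Mmp8 as log10(CPM + 0.1), 1 point a library, in the 6 groups; culture and tumour libraries were scaled separately. Control cultures lie at or near 0 CPM and NET cultures above them for Mmp13, Mmp12, Mmp10 and Mmp8, and tumour cells lie higher still for Mmp13, Mmp12 and Mmp10, with KO laparotomy replicate 2 above replicate 1 in all 5 panels.

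Of the gelatinases, Mmp9 passed the test and Mmp2 did not, while their log2 fold changes had the same sign. Mmp2 rested on 25 counts over the control cultures and 36 with NET chromatin, and the genes were not tested against each other. Mmp9, gelatinase B, an enzyme of type IV collagen, read 9.10, 8.23 and 8.97 CPM in controls and 12.7, 12.3 and 12.4 CPM with NET chromatin. All NET cultures were above all controls, and the log2 fold change was 0.51 ± 0.12 (SE; edgeR adjusted p = 0.00233). Mmp2 read 1.18, 0.549 and 0.532 CPM in controls and 1.10, 1.35 and 0.968 CPM with NET chromatin, where the groups overlapped and the test was not passed (log2 fold change 0.59 ± 0.38, adjusted p = 0.208).

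The lower genes included the cultures' most abundant MMPs. Mmp14 (chromosome 14, 54431612 to 54445364), the membrane-type MMP that sits on the cell surface and activates proMMP2, read 159, 164 and 161 CPM in controls and 96.3, 97.8 and 92.5 CPM with NET chromatin. The groups lay far apart relative to their spread, and Mmp14 fell by 0.76 ± 0.06 on the log2 scale (SE; edgeR adjusted p = 7.89e-08). Mmp11 fell from 228, 252 and 223 CPM to 178, 185 and 186 CPM, a log2 fold change of -0.36 ± 0.06 (adjusted p = 0.000189), with no overlap. Mmp28, epilysin, fell from 3.10, 3.76 and 4.56 CPM to 1.96, 0.842 and 1.58 CPM, a log2 fold change of -1.33 ± 0.26 (adjusted p = 0.000372). Among the 17 tested genes it had the largest fall, and again the groups did not overlap.

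Among the tested ADAMTS genes the changes were small. Adamts7, which cuts cartilage oligomeric matrix protein, read 25.4, 33.0 and 29.4 CPM in controls and 39.6, 33.7 and 41.3 CPM with NET chromatin (log2 fold change 0.40 ± 0.10, adjusted p = 0.00423). Adamts6 read 9.74, 8.86 and 9.96 CPM and 11.6, 15.1 and 12.6 CPM (0.44 ± 0.13, adjusted p = 0.00946). In both genes the NET cultures were all above the controls, in Adamts7 by a narrow margin.

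Adamts1 and Adamts9, which cut versican, were lower. Adamts1 read 35.1, 31.7 and 39.3 CPM in controls and 32.4, 20.7 and 28.0 CPM with NET chromatin, so that the groups overlapped while the test was passed (-0.37 ± 0.12, adjusted p = 0.0199). Adamts9 read 27.3, 26.3 and 26.6 CPM and 18.7, 21.7 and 22.8 CPM without overlap (-0.33 ± 0.10, adjusted p = 0.0110). The aggrecanase Adamts4 (24.5, 27.3 and 28.2 CPM against 23.1, 30.6 and 30.8) did not pass. Nor did the procollagen N-propeptidase Adamts14 (97.5, 98.5 and 97.0 CPM against 102, 89.7 and 96.5), or Adamts10, a protease bound to fibrillin microfibrils (18.3, 22.6 and 20.1 CPM against 23.5, 23.6 and 23.8). Adamts2, Adamts5, Adamts12 and Adamts16 were at or below 1.10 CPM in every culture.

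The inhibitors moved little and in opposite directions. Timp1, the TIMP that many cells induce upon inflammation, read 63.1, 54.6 and 57.7 CPM in controls and 66.1, 70.5 and 71.6 CPM with NET chromatin (log2 fold change 0.25 ± 0.08, adjusted p = 0.0102). Timp2, which also takes part in the activation of proMMP2 by the Mmp14 product, read 274, 286 and 264 CPM and 260, 231 and 243 CPM (-0.16 ± 0.06, adjusted p = 0.0378). Neither gene's groups overlapped. Leaving out 1 library ended the call of Timp2 (without control replicate 1 or 2 or NET replicate 2 or 3, adjusted p up to 0.126), of Adamts1 (without control replicate 3 or NET replicate 2 or 3, up to 0.118) and of Adamts9 (without NET replicate 1, 0.0539). Without NET replicate 3 the calls of Adamts7 (0.0517) and Timp1 (0.0694) ended as well. Timp3, which is held in the matrix, lay at 0.532 to 0.963 CPM in controls and 0 to 0.510 CPM with NET chromatin and was not tested, like Timp4. When CPM were taken from library totals without the scaling factors, which moved the median of all genes to -0.16, the calls of Timp1, Adamts6 and Adamts7 were lost and that of Adamts14 was gained on the lower side, leaving 4 higher and 7 lower.

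Other parts of the system around these proteases were counted from 6 lists. Of their 71 genes, 42 were tested and 28 passed, where 54.1% of all genes passed, 26.3% higher and 27.8% lower. Of the plasminogen list, whose product plasmin can activate several proMMPs, 5 of 10 genes were tested, 2 were higher and 0 lower. Plat, tissue plasminogen activator, rose from 25.2 to 28.5 CPM in controls to 41.1 to 50.3 CPM (log2 fold change 0.83, adjusted p = 2.08e-06), and Plaur, the urokinase receptor, by 0.29 (adjusted p = 0.00965). Of the activators, inhibitors and clearance receptors of MMPs, 8 of 14 were tested, with 2 higher and 4 lower. Thbs1 and Thbs2, thrombospondins that bind MMPs and carry them to the scavenger receptor Lrp1, rose by 1.07 and 1.03, while Lrp1 itself had a log2 fold change of -0.29 and Pcsk7, a proprotein convertase, of -0.39. Reck, a membrane inhibitor of MMPs, and Furin were the other lower genes. Of the 12 alternatives run, Reck passed in 8 (not without control replicate 1 or 3 or NET replicate 3, nor in DESeq2, adjusted p up to 0.258) and Furin in 9 (not without control replicate 2 or 3 or NET replicate 3, up to 0.128). Plaur passed in 10 (not without control replicate 3 or with library totals, up to 0.197), and Pcsk7 in 10 (not without control replicate 3 or NET replicate 2, up to 0.114).

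The remaining lists were mixed in direction, and their counts stand beside a call in 54.1% of all genes. In the ADAM list, Adam8 (0.56) and Adam15 (0.26) were higher and Adam10 (-0.26) lower, among 5 of 10 tested. Adamtsl4 (-0.42) was the one call among 3 of 6 ADAMTS-like genes tested. Of the other matrix proteases and crosslinkers all 7 that were tested (of 17) passed, 3 higher and 4 lower; the lysosomal proteases Ctsl and Ctsb had log2 fold changes of 0.70 and 0.30, the secreted serine protease Htra1 of -0.67 and the lysyl oxidase Loxl4 of -0.57. Ctsl stood at 1310 to 1490 CPM in controls and 2240 to 2360 CPM with NET chromatin. Of 14 AP-1, ETS and Runx factors, all tested, 5 were higher and 4 lower. Among the subunits of AP-1, Fosb (1.17), Junb (0.83), Fos (0.65) and Fosl2 (0.62) were higher, Fosl1 (-0.87) and Jund (-0.70) were lower, and Jun (0.18) did not pass. The other calls were Runx2 (0.80), and the ETS factors Etv5 (-0.65) and Ets2 (-0.60). Fos and Fosb did not pass without NET replicate 3 or in DESeq2. Junb did not pass without NET replicate 1, without the filter on low counts or with the replicate number as a block. Jund did not pass with that block either (edgeR adjusted p = 0.0735). Adam10 was lost without NET replicate 3, and Adam15 with library totals.

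In tumours, 32 of the 46 genes were tested. The question was how laparotomy altered tumour cells in WT hosts and whether hosts without PAD4 differed. In WT hosts, 0 of the 32 passed in edgeR, against 0.0547% of all 14615 genes, while 10 had an unadjusted p below 0.05, against 18.8% of all genes, and DESeq2 called 8, all lower, against 6.49% of all genes lower. The log2 fold change lay below 0 for 23 of the 32, with a median of -0.53 beside -0.01 for all genes. In 17 genes both laparotomy libraries were below both controls, against 28% of all genes, and in 4 both were above, against 29.2%. Host markers were low in the same libraries: all 12 macrophage markers and all 10 lung epithelial markers had both laparotomy libraries below both controls. Macrophage markers summed to 375 and 1650 CPM in controls and 120 and 110 CPM with laparotomy, neutrophil markers to 52.1 and 572 against 6.84 and 4.91 CPM, and lung epithelial markers to 144 and 825 against 16.5 and 25.5 CPM. The part of this RNA in the lower levels was not tested.

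In KO hosts the values went the other way. Of the 32 genes, 2 were higher with laparotomy, Mmp19 and Adamts4, against 0.342% of all genes, and 0 were lower, against 0.178%. At an unadjusted p below 0.05 there were 10, against 15.7% of all genes, and DESeq2 called 7 higher and 1 lower, against 3.05% and 2.39%. The log2 fold change was above 0 for 22 of 32, with a median of 0.53. The difference between the laparotomy effects of the hosts, tested as an interaction, was passed by the same 2 genes, against 0.411% of all genes on that side, and by 0 on the other, against 0.267%. An unadjusted p below 0.05 was reached by 13, against 19.2% of all genes, and DESeq2 called 7, all higher, against 5.09%. It was above 0 in 26 of 32, with a median of 1.10 beside 0.03 for all genes. Macrophage markers in KO hosts summed to 122 and 336 CPM without surgery and 472 and 332 CPM with it, so that the groups overlapped narrowly. Other host markers in KO hosts did not rise in this way. Pan-leukocyte sums were lower with laparotomy, at 284 and 279 against 194 and 155 CPM. Laparotomy libraries lay between the controls for neutrophil (11.8 and 92.3 against 20.7 and 23.8 CPM) and lung epithelial sums (44.3 and 422 against 103 and 94.8 CPM). The same held for endothelial sums (120 and 383 against 188 and 169 CPM). Fibroblast and mural markers summed to 6590 and 5320 CPM in WT controls, 5190 and 3770 with laparotomy, 10100 and 5600 in KO controls and 6890 and 12400 with laparotomy. The part of any of these cell types in the difference between hosts was not tested.

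**Figure D4:**
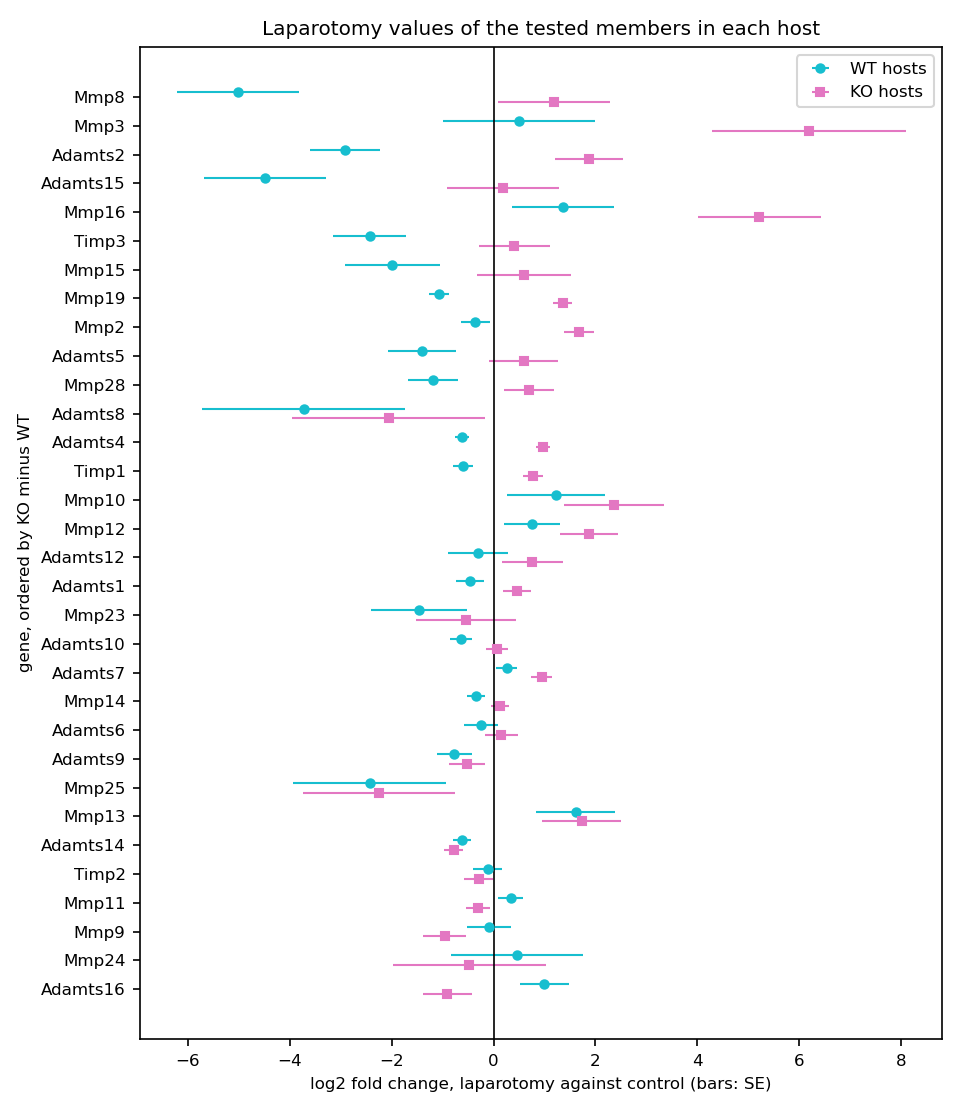
Log2 fold change with laparotomy against no surgery for the 32 tested genes in WT hosts (circles) and KO hosts (squares), with standard errors, ordered by the difference KO minus WT. Mmp19 and Adamts4 have small errors and values on opposite sides of 0, whereas Mmp8, Mmp3 and Adamts8 have errors above 1.

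Mmp19 (chromosome 10, 128790910 to 128800824) read 56.1 and 71.5 CPM in WT control tumours and 33.8 and 27.0 CPM with laparotomy. In KO hosts it read 30.7 and 24.6 CPM without surgery and 65.4 and 76.8 CPM with laparotomy. WT control and KO laparotomy libraries thus shared 1 range, WT laparotomy and KO control libraries another, and the ranges did not touch. The log2 fold change was -1.07 ± 0.19 in WT hosts (SE; edgeR adjusted p = 0.0859, not passed) and 1.36 ± 0.19 in KO hosts (adjusted p = 0.0322), a difference of 2.44 ± 0.27 (adjusted p = 0.0197). Without WT control replicate 2 the difference was 2.24 ± 0.28 (adjusted p = 0.0149), whereas without WT laparotomy replicate 1 (0.0582) or 2 (0.1) or KO control replicate 1 (0.0718) it did not pass. The call in KO hosts ended when any 1 library of KO hosts or of WT laparotomy hosts was left out (adjusted p from 0.054 to 0.165).

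Adamts4 (chromosome 1, 171250421 to 171260637), an aggrecanase that also cuts versican, read 106 and 105 CPM in WT control tumours and 71.5 and 66.9 CPM with laparotomy. In KO hosts it read 103 and 80.3 CPM without surgery and 169 and 190 CPM with laparotomy, the highest levels of the series. Both laparotomy groups lay outside the range of the controls, on opposite sides. The log2 fold change was -0.61 ± 0.14 in WT hosts (SE; edgeR adjusted p = 0.135, not passed) and 0.96 ± 0.14 in KO hosts (adjusted p = 0.0322), a difference of 1.58 ± 0.20 (adjusted p = 0.0201). Adamts4 was the only one of the 32 to pass between KO and WT hosts with laparotomy (1.37 ± 0.14, adjusted p = 0.0437), where 0.0205% of all genes were higher; at an unadjusted p below 0.05 there were 7, against 13.4% of all genes, and DESeq2 called 5 higher, against 2.6%. Without WT laparotomy replicate 1 or 2 the difference of Adamts4 did not pass (adjusted p = 0.113 and 0.126). Its calls in KO hosts and between hosts with laparotomy ended when any 1 library of KO hosts or of WT laparotomy hosts was left out (adjusted p up to 0.117 and 0.496), and the call in KO hosts also when the compared groups were fitted alone.

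Other members shared this order without passing. Mmp2 read 615 and 411 CPM in WT control tumours and 473 and 328 CPM with laparotomy, and 176 and 278 CPM in KO control tumours and 746 and 710 CPM with laparotomy. The KO groups lay far apart (log2 fold change 1.68 ± 0.29, edgeR adjusted p = 0.0640) while the WT groups overlapped, and the difference of 2.04 ± 0.40 had an adjusted p of 0.0714. Timp1 read 466 and 324 CPM, then 248 and 271 CPM in WT hosts, and 228 and 304 CPM, then 479 and 433 CPM in KO hosts (difference 1.38 ± 0.28, adjusted p = 0.0699). Adamts2, a procollagen N-propeptidase, read 6.21 and 4.55 CPM, then 0.654 and 0.756 CPM in WT hosts, and 0.494 and 1.47 CPM, then 4.97 and 2.29 CPM in KO hosts (difference 4.80 ± 0.96, adjusted p = 0.0699). All 3 had the WT control and KO laparotomy libraries above the other tumour libraries, except that Mmp2 in WT laparotomy replicate 1 exceeded WT control replicate 2. Without WT control replicate 2, the library rich in host markers, the difference was 2.30 for Mmp2 and 1.62 for Timp1. Such fits leave 1 library in a group. Which genes passed in them changed with the library left out, and gains were not particular to this library.

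**Figure D5:**
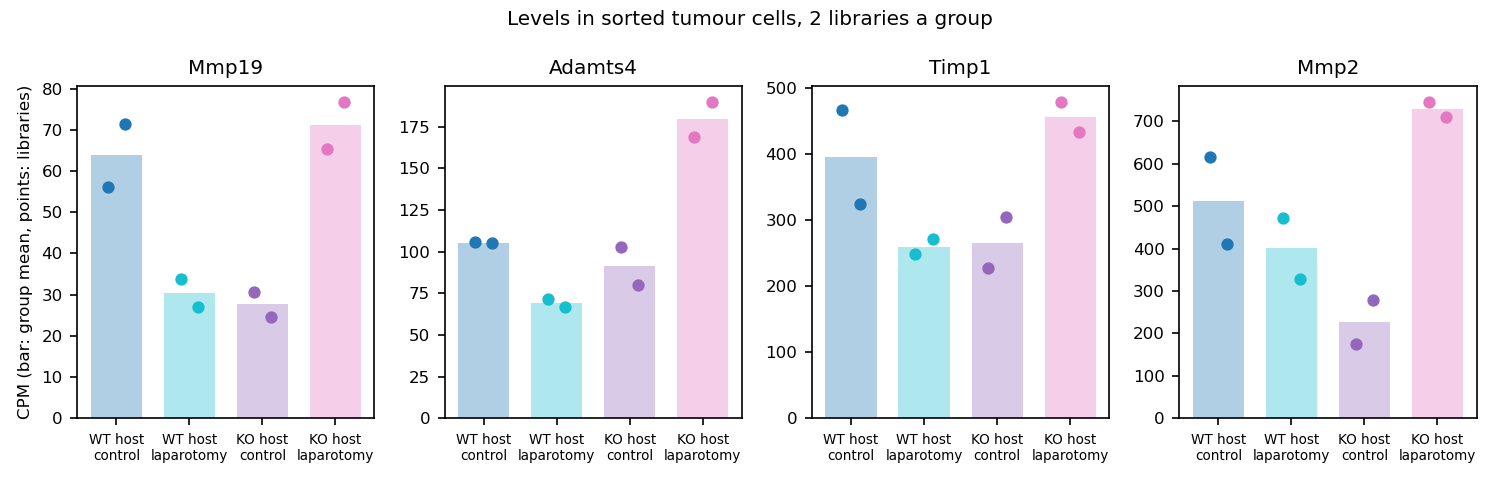
Levels in CPM of Mmp19, Adamts4, Timp1 and Mmp2 in the 4 tumour groups (bars: group means; points: the 2 libraries). Mmp19 is high in WT control and KO laparotomy tumours and low in the other 2 groups, and Adamts4 and Mmp2 are highest in KO laparotomy tumours.

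Between hosts without surgery, 0 of the 32 passed in edgeR, against 0.116% of all genes, although 11 had an unadjusted p below 0.05, against 16.3% of all genes, and DESeq2 called 5 lower, against 3.33%. The median log2 fold change, KO against WT, was -0.65, and in 18 genes both KO libraries were below both WT libraries, against 22.2% of all genes. Mmp19 had the smallest p (-1.21 ± 0.19, edgeR adjusted p = 0.0741), followed by Mmp2 (-1.18 ± 0.28, adjusted p = 0.149). With laparotomy the median was 0.62, and in 17 genes both KO libraries were above both WT libraries, against 26.2% of all genes. These comparisons share their tumour groups with the laparotomy comparisons, so their values are not independent of each other.

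Levels of the cluster genes differed widely between some replicates. Mmp12 read 74.8 and 35.7 CPM in WT control tumours, 111 and 74.3 with laparotomy, 17.6 and 12.5 in KO control tumours and 30.0 and 80.3 with laparotomy. Mmp13 read 15 and 27.3 CPM, then 83.0 and 47.6 in WT hosts, and 12.4 and 18.3, then 16.5 and 85.4 in KO hosts. Mmp10 read 30.0 and 13.3 CPM, then 62.6 and 37.0 in WT hosts, and 23.1 and 16.7, then 21.7 and 183 in KO hosts.
In WT hosts the laparotomy libraries were above the controls for Mmp13 and Mmp10, whereas Adamts4, Mmp19, Timp1 and Adamts2 were below them. Mmp3 read 0.639 and 5.90 CPM, then 7.10 and 2.77 in WT hosts, and 0.456 and 0.528, then 2.08 and 70.6 in KO hosts. KO laparotomy replicate 2 stood apart for Mmp3, Mmp10 and Mmp13. With it, KO against WT hosts with laparotomy gave log2 fold changes of 2.89 ± 1.60 for Mmp3 and 1.04 ± 0.93 for Mmp10, and without it -1.25 and -1.21, none of which passed. That library also held the highest fibroblast and mural sum, 12400 CPM, while its macrophage sum (332 CPM) and neutrophil sum (23.8 CPM) were within the range of the others. Col3a1 alone held 8080 CPM of the fibroblast and mural sum, and the markers disagreed. Dcn, Lum, Postn and Pdgfra were also highest in that library, whereas Pdgfrb (243 CPM) was the lowest of the tumour libraries. Col1a1 (949 CPM) and Acta2 (16.7 CPM) were below KO laparotomy replicate 1 (1760 and 31.6 CPM). The part of fibroblasts in these levels was not tested.

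Mmp8 was high in 1 tumour library. It read 2.01 and 26.0 CPM in WT control tumours, 0.523 and 0.346 with laparotomy, 0.418 and 0.943 in KO control tumours and 0.941 and 2.16 with laparotomy. The 26.0 CPM were in WT control replicate 2, which also held 143 CPM of S100a8 and the highest neutrophil, macrophage and lung epithelial sums. The log2 fold change with laparotomy in WT hosts was -5.02 ± 1.20 (edgeR adjusted p = 0.137) and became -2.20 without that library. Adamts15 (1.10 and 8.63 CPM in WT control tumours, 0.905 CPM or less elsewhere) and Mmp15 (1.00 and 5.70 CPM, 2.09 CPM or less elsewhere) were also highest in it.

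Mmp9, by contrast, was highest in KO control tumours. It read 111 and 230 CPM in WT control tumours, 179 and 142 with laparotomy, 407 and 252 in KO control tumours and 215 and 124 with laparotomy. The KO control libraries were above all others, but neither KO against WT without surgery (log2 fold change 0.94 ± 0.43, adjusted p = 0.346) nor laparotomy in KO hosts (-0.96 ± 0.43, adjusted p = 0.355) passed. Mmp14 and Mmp11 passed no tumour comparison. Mmp14 read 384 and 475, 373 and 306, 485 and 350, and 473 and 436 CPM in the same order of groups, and Mmp11 54.7 and 45.5, 76.0 and 50.3, 72.1 and 55.0, and 44.8 and 58.2 CPM. Their log2 fold changes with laparotomy lay between -0.34 and 0.34 in both hosts.

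Of the remaining MMPs, Mmp28 read 18.8 and 20.9 CPM in WT control tumours and 8.89 and 8.66 with laparotomy, then 9.49 and 7.77, and 21.9 and 6.13 CPM in KO hosts. WT controls were above WT laparotomy libraries, and the KO laparotomy libraries disagreed. Mmp16, a membrane-type MMP, had 2 counts in KO control tumours and 48 with laparotomy, a 42.7-fold ratio with the interval 11.2 to 362 (edgeR adjusted p = 0.106), at 2.02 and 1.21 CPM. Mmp1b, Mmp21 and Mmp27, untested, had 8, 10 and 13 counts in KO laparotomy tumours against 2, 2 and 1 in KO controls, and 7, 10 and 11 of these counts were in KO laparotomy replicate 2 alone.

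Among the ADAMTS genes, Adamts14 had an order of its own. It read 84.5 and 95.1 CPM in WT control tumours, 51.6 and 65.2 with laparotomy, 145 and 105 in KO control tumours and 72.0 and 73.4 with laparotomy. Laparotomy libraries were below controls in both hosts, with log2 fold changes of -0.62 ± 0.18 (edgeR adjusted p = 0.154) and -0.79 ± 0.18 (adjusted p = 0.102), and the difference between hosts was -0.16 ± 0.25. Adamts16 read 6.03 and 3.39 CPM, 11.8 and 6.90, 8.70 and 11, and 3.36 and 7.14 CPM, with lower means in WT control and KO laparotomy tumours than in the other groups (difference -1.91 ± 0.68, adjusted p = 0.186). Adamts7 read 21.4 and 20.8 CPM, 29.4 and 20.9, 20.6 and 17.8, and 32.2 and 41.7 CPM, with both KO laparotomy libraries above all others (0.94 ± 0.21 against KO controls, adjusted p = 0.0981).

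The versican and aggrecan proteases beside Adamts4 did not pass. Adamts1, in the same order of groups, read 196 and 268, 170 and 167, 132 and 229, and 288 and 209 CPM. Adamts9 read 59.0 and 38.0, 33.9 and 23.0, 29.8 and 17.9, and 20.4 and 12.7 CPM, with WT controls above all other tumour libraries. Adamts5 read 26.7 and 20.2, 9.72 and 7.94, 3.53 and 18.9, and 20.3 and 13.4 CPM. The KO groups of Adamts1 and Adamts5 overlapped, and their differences between hosts were 0.92 ± 0.39 (adjusted p = 0.255) and 2 ± 0.95 (adjusted p = 0.303).

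Adamts10 read 31.3 and 49.6, 25.9 and 26.5, 23.0 and 26.1, and 28.3 and 23.4 CPM, with WT controls highest. Adamts12, which cuts cartilage oligomeric matrix protein as Adamts7 does, read 19.9 and 8.07, 13.5 and 8.97, 5.28 and 6.64, and 15.5 and 4.79 CPM. Adamts6 stayed between 4.79 and 7.21 CPM in all 8 tumour libraries. No comparison of these 3 genes passed in edgeR.

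Of the other inhibitors, Timp2 and Timp3 likewise passed no tumour comparison in edgeR. Timp2 read 139 and 255, 198 and 167, 304 and 215, and 208 and 217 CPM, with all groups overlapping in the laparotomy comparisons. Timp3 read 29.8 and 56.9, 8.67 and 7.53, 6.15 and 23.4, and 27.3 and 11.9 CPM. In Timp3 the WT control libraries were above the others, replicate 2 most of all, and the WT laparotomy value of -2.43 ± 0.72 did not pass (edgeR adjusted p = 0.174). The Timp3 difference between the laparotomy effects had the same direction as that of Timp1 (2.84 ± 0.98, edgeR adjusted p = 0.199). Timp4 had 0.132 CPM or less in every tumour library.

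Of the 6 lists of surrounding genes, tumour comparisons gave 2 genes past the threshold. Ctsk, the collagen-cutting cathepsin K, read 20.4 and 51.6 CPM in WT control tumours, 3.96 and 8.82 with laparotomy, 6.11 and 5.62 in KO control tumours and 34.1 and 36.9 with laparotomy. Its groups parted like those of Mmp19, and the difference between the laparotomy effects was 5.09 ± 0.70 (SE; edgeR adjusted p = 0.0329). Etv1, an ETS factor, read 22.4 and 11.5, 13.6 and 10.0, 4.94 and 4.34, and 27.8 and 56.2 CPM. It was higher with laparotomy in KO hosts (3.18 ± 0.44, adjusted p = 0.0322), with a difference between hosts of 3.68 ± 0.59 (adjusted p = 0.0459). Neither Etv1 value passed with the replicate number as a block. The value of Etv1 in KO hosts kept its call in 9 of 15 alternatives, over which it ranged from 2.56 to 3.59. Both differences failed without any 1 library of WT laparotomy or KO control tumours or KO laparotomy replicate 2, and that of Ctsk also without KO laparotomy replicate 1 and in the fit without the filter (adjusted p up to 0.234 for Etv1 and 0.155 for Ctsk). The plasminogen list (9 of 10 tested), the activators and inhibitors (12 of 14), the ADAM list (8 of 10) and the ADAMTS-like list (5 of 6) had 0 calls in the tumour comparisons in edgeR. Over all 6 lists, with 61 genes tested, each tumour comparison had 16 to 26 genes with an unadjusted p below 0.05, where all genes gave 13.4 to 19.2%, and DESeq2 called 6 to 16, where it called 3.99 to 8.42% of all genes. Ctsk and fibroblast markers are known from the same stromal cells. Of the 10 fibroblast and mural markers, both laparotomy libraries were below both controls for 4 and above them for 0 in WT hosts. Over all genes these shares were 28% and 29.2%. In KO hosts these markers were mixed in direction, some below both controls and some above. The part of such cells in the level of Ctsk was not tested.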

How the data were processed

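Total RNA of cultured or sorted MC-38 cells was sequenced. The submitters' processing notes name STAR, Trimmomatic and the build mm10 (GRCm38); their versions and options, like the annotation, were not given in the sources used here. The deposited values are raw counts per gene, made by the authors, in an unstranded column and one for each strand; the first-strand column held 1.09 to 1.20% of stranded counts. The unstranded column was analysed. Summary lines were left out (reads without a feature were 12.1 to 24.0%).

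The test was that of edgeR 4.0.16 under R 4.3.3 (filterByExpr with groups, TMM, estimateDisp, robust glmQLFit, glmQLFTest; Benjamini-Hochberg over all genes, threshold 0.05). The 6 culture libraries (11753 genes) and the 8 tumour libraries (14615 genes, 4 groups sharing one spread) were fitted separately. The common biological coefficient of variation came to 0.0633 (culture) and 0.278 (tumours). Standard errors come from the F statistic. Levels are CPM with TMM factors, with no count added; counting intervals are exact at 95%, and floors are 3 counts over the group; both cover counting error only. Positions and exon lengths are from GENCODE on GRCm38, promoters from RefSeq GRCm38.p6. The scripts were tested on simulated data.

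Members and lists were chosen with earlier results of these data known. Values in every library are given for members past the threshold or with a group mean of 5 CPM or more; of each other list up to 4 genes with the smallest p are named, and Ctsl, Fosl1, Fosb, Fos, Junb, Jund, Jun, Col1a1, Reck, Furin and single markers were added after their values were seen where this rule did not take them. Alternatives were RLE factors, library totals, no filter, the strand-specific column, DESeq2 1.42.0, the compared groups alone, a replicate block and leaving out each library.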

Additional observations from a re-analysis of the deposited data

Results flagged for a closer look

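The effect of laparotomy differed between hosts, by the edgeR interaction test, for 2 MMP and ADAMTS genes and 2 genes of the surrounding lists. The difference KO minus WT was 2.44 (log2) for Mmp19, with an adjusted p of 0.0197, and 1.58 for Adamts4, with an adjusted p of 0.0201. It was 5.09 for Ctsk (adjusted p = 0.0329) and 3.68 for Etv1 (adjusted p = 0.0459). For Mmp19, Adamts4 and Ctsk both libraries of each group lay on the side the difference states in both hosts. Macrophage marker sums of the same libraries were 375 and 1650 against 120 and 110 CPM in WT hosts and 122 and 336 against 472 and 332 CPM in KO hosts. In KO hosts pan-leukocyte sums went the other way (284 and 279 against 194 and 155 CPM). Neutrophil sums with laparotomy lay between the KO controls there (11.8 and 92.3 against 20.7 and 23.8 CPM). The part of such cells in these differences was not tested.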

How the results depend on the processing

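In culture, library totals without scaling factors left 4 genes higher, and leaving out each library gave 5 to 8 higher and 4 to 5 lower. Mmp8, Mmp12, Mmp13, Mmp9, Mmp14, Mmp11 and Mmp28 passed in all 12 alternatives run. In tumours, without the filter on low counts, 1 gene was lower with laparotomy in WT hosts, 3 higher and 1 lower in KO hosts, 4 had a higher difference between the laparotomy effects, 1 was lower in KO hosts without surgery and 2 were higher in KO hosts with laparotomy. DESeq2 gave 8 lower in WT hosts, 7 higher and 1 lower in KO hosts, 7 for the difference, 5 lower in KO against WT hosts without surgery and 5 higher with laparotomy, where the compared groups alone gave 3. Leaving out each library, with a lone sample assumed to vary like the others, gave 0 to 4 lower in WT hosts, 0 to 4 higher in KO hosts, 0 to 6 for the difference, 0 to 2 lower between hosts without surgery and 0 to 2 higher with laparotomy; the cause was not tested. Of 2548 fold changes of single MMP, ADAMTS and TIMP genes under these alternatives, 79 changed sign, and 0 of the 79 belonged to a gene past the threshold in either fit.

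With the replicate number as a replicate block, 7 genes were higher and 6 lower with NET chromatin, 2 passed the difference, and 0 passed with laparotomy in KO hosts or between hosts with laparotomy. Deviations of same-numbered libraries correlated at 0.0904, 0.0938 and -0.0259 in culture and from -0.122 to 0.357 in tumours. The 0.357 was between WT control and KO control libraries. In both of these groups replicate 2 held the higher lung epithelial sum (825 against 144 and 422 against 44.3 CPM). With 2 libraries a group the deviations mirror each other, so whether same-numbered tumour libraries share more than a number could not be told.

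Groups of 2 tumour libraries limit every tumour call, and for Mmp3, Mmp8 and Mmp16 counts were too few or too uneven for a firm size.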
